A study of Homo sapiens with 6 samples.

Results

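The RNA of 10 genes of the Hippo pathway was measured in neuroblastoma cells with and without induction of MYCN. The genes are the co-activators YAP1 and WWTR1, which encodes TAZ, the DNA-binding partners TEAD1, TEAD2 and TEAD4, and the target genes CCN1, CCN2, AMOTL2, ANKRD1 and LATS2. They were listed by symbol, with earlier results of these data known, and each matched 1 of the 60651 gene identifiers in the deposited counts. The SK-N-AS line, which was derived from a human neuroblastoma, lacks MYCN amplification. The cells were stably transfected with a tetracycline-repressor system that holds a MYCN gene silent until tetracycline is added, and were kept as single clones under 500 µg/ml G418 and 5 µg/ml blasticidin. The 3 control libraries carry ETOH in their titles and the 3 MYCN-induced libraries come from cultures that received tetracycline for 5 days, given as 120 h in the titles. Both groups share the cell line, the construct and the selection, and tetracycline-treated cells lacking the MYCN construct were not analysed here. An effect of MYCN and an effect of tetracycline itself therefore cannot be told apart. Whether the 2 groups come from the same clone is not given in the sources used here. The study describes its experiments as biologically independent, while the labels number the libraries without saying so.

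In the Hippo pathway, the kinases MST1 and MST2 (genes STK4 and STK3) activate the kinases LATS1 and LATS2, which phosphorylate YAP and TAZ and keep them out of the nucleus. When the kinases are inactive, as in spread or stretched cells, YAP and TAZ enter the nucleus and bind the TEAD transcription factors, since they cannot bind DNA themselves. The targets include secreted matricellular proteins (CCN1, CCN2) and feedback inhibitors of the pathway (LATS2, AMOTL2). Phosphorylation and localization are not measured by RNA counts, so the values below describe how much RNA of each component was present and not the activity of YAP or TAZ.

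The libraries held between 64500589 and 102249336 counted read pairs. In edgeR, 29086 genes passed a filter of at least 10 counts in at least 3 libraries, and all 10 members were among them. The induced MYCN gene was at 32.7 ± 2.62 CPM (read pairs scaled to a common library total with TMM factors, SD, n = 3) in control and 210 ± 11.4 CPM (SD, n = 3) in MYCN-induced cells, and the groups did not overlap. MYCN-induced replicate 3 stood apart from the other libraries, at 69.1 on the first principal component against 13.1 and 14.4 in the other induced libraries. The control libraries were at -40.3, -30.4 and -25.9, so this component also separated the groups. The edgeR fit was also run without MYCN-induced replicate 3, and counts of calls that changed are given both ways. Of the neuroblastoma marker genes, 7 of 8 adrenergic markers had a mean of at least 1 CPM, and TH, which encodes tyrosine hydroxylase, was between 0.665 and 1.58 CPM. Of the mesenchymal markers, 5 of 6 reached 1 CPM. Summed adrenergic markers ranged from 909 to 1287 CPM in control and from 908 to 1102 CPM in induced libraries. Summed mesenchymal markers ranged from 436 to 456 CPM and from 493 to 559 CPM. Most of the mesenchymal sum was VIM, which averaged 364.5 CPM in control and 447.4 CPM in induced libraries (adjusted p = 0.0595 from edgeR). FN1 came next and went the other way, at 56.7 and 34.8 CPM. At an adjusted p under 0.05 from edgeR, 1 of 8 adrenergic and 1 of 5 mesenchymal genes tested were called lower. Of 3 tested genes of other cells 0 were, against 2.38% of all tested genes called lower. Markers called higher numbered 0, against 1.02%. The mesenchymal gene called lower was FN1 (log2 fold change -0.71, adjusted p = 0.0330 from edgeR). The other tested mesenchymal genes PRRX1 (0.72), FOSL1 (1.18), SNAI2 (0.20) and VIM (0.30) had log2 fold changes above 0. DESeq2 called 2 mesenchymal genes higher (FOSL1 and VIM), against 3.11% of all tested genes. The fit without MYCN-induced replicate 3 called 3 (PRRX1, FOSL1 and VIM), against 3.64%. DESeq2 and the fit without that library each called 3 of the 8 adrenergic genes lower, against 4.12% and 4.37%. FN1 had a log2 fold change below 0 in 12 of 12 alternatives. It was called lower in 7 of the 12, and in 1 of the 6 that left out a library. The part of these marker levels in the results below was not tested. Markers of blood, endothelial and epithelial cells summed to between 1.69 and 2.83 CPM over 6 genes, PTPRC alone reached 1 CPM and CD3E was at 0 in every library.

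The promoter sequences are shown because 3 of the target genes carry the short element that TEAD proteins recognize, GGAATG, just before their start. On the opposite strand this element reads CATTCC. A RefSeq promoter entry on GRCh38.p14 was found for 7 of the 10 members, in 10 windows, and CCN1, TEAD1 and TEAD4 had none. The 250 bases before each annotated start were searched on both strands for GGAATG, for the E-box CACGTG that MYC family proteins bind, and for TGANTCA, the element of AP-1, and no matches overlapped. Capitals mark the matches. The CCN2 window, chr6:131951373-131951622 on the minus strand, lies in introns of the opposite-strand LINC01013 and held 3 copies of GGAATG, whose first bases lay 169, 104 and 95 bases before the start. The ANKRD1 window, chr10:90921088-90921337 on the minus strand, held 2 copies at 220 and 128 bases and 1 AP-1 element at 195 bases. The inner of the 2 AMOTL2 windows held 1 copy on the opposite strand, of which 30 bases are shown (chr3:134374499-134374528, minus strand). The YAP1 window, chr11:102110197-102110446 on the plus strand, held 1 GGAATG at 162 bases and 1 E-box at 203 bases, and overlaps an exon of the opposite-strand gene ENSG00000277459.
CCN2: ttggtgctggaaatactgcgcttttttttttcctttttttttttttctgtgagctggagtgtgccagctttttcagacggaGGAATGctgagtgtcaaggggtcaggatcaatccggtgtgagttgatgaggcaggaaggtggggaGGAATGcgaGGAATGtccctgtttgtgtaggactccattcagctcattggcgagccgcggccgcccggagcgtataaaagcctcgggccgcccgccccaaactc
ANKRD1: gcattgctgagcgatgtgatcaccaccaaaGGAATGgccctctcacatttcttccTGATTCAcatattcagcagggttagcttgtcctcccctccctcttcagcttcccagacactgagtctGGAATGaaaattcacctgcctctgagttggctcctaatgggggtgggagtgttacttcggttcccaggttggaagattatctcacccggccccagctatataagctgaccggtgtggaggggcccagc
AMOTL2: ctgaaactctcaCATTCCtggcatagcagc
YAP1: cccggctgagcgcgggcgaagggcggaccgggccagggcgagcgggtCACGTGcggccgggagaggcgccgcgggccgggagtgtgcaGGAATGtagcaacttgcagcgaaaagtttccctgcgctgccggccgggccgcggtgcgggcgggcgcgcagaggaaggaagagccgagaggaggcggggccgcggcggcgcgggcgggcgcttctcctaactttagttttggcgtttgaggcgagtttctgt
Over all 35116 windows of this length, 11.9% held at least 1 GGAATG, 0.940% held at least 2 and 0.0826% at least 3, and CCN2 and ANKRD1 are among the windows with 3 and 2 copies. The E-box was present in 6.3% and the AP-1 element in 6.6% of windows. The windows of LATS2, TEAD2 and WWTR1 and the outer window of AMOTL2 held none of the 3 motifs. A match is a string of letters and does not show binding.

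**Figure D1:**
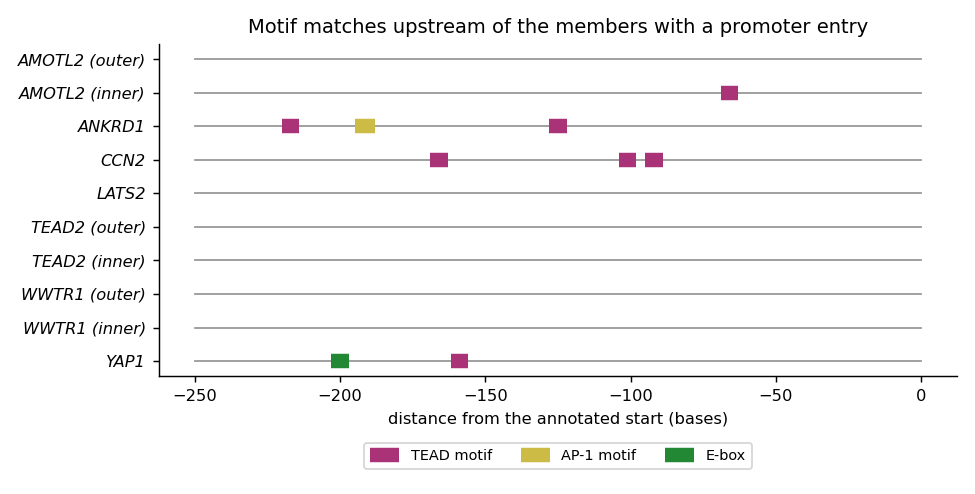
Positions of motif matches in the 250 bases before each annotated start (x axis, bases from the start) of the 7 members with a promoter entry, 1 line per window. CCN2 carried 3 TEAD motifs, ANKRD1 2 and the inner AMOTL2 window and YAP1 1 each, and the other 6 windows were empty.

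The target genes CCN1 and AMOTL2 fell after MYCN induction in the fit with all libraries, and no effector passed the threshold in either direction. The difference between targets and effectors was not tested. At an adjusted p under 0.05 from edgeR over all tested genes, 2 of the 10 members were lower and 0 higher, against 2.38% and 1.02% of all tested genes. All 5 targets had a log2 fold change below 0, as had 50.1% of all tested genes, with a median of -0.54, where the median over all tested genes was 0.00. The 5 effectors had a median of 0.03, with 2 below 0. The values of the 2 groups did not overlap for 5 members that were lower and 1 that was higher in every induced library, against 14.7% and 11.5% of all tested genes. At an unadjusted p under 0.05 there were 6 members, against 18.7% of all tested genes. DESeq2 called 3 members lower and 1 higher, against 4.12% and 3.11% of all tested genes. Leaving out MYCN-induced replicate 3 gave 3 lower and 2 higher, against 4.37% and 3.64%. Leaving out any other single library gave 0 members in either direction.

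**Figure D2:**
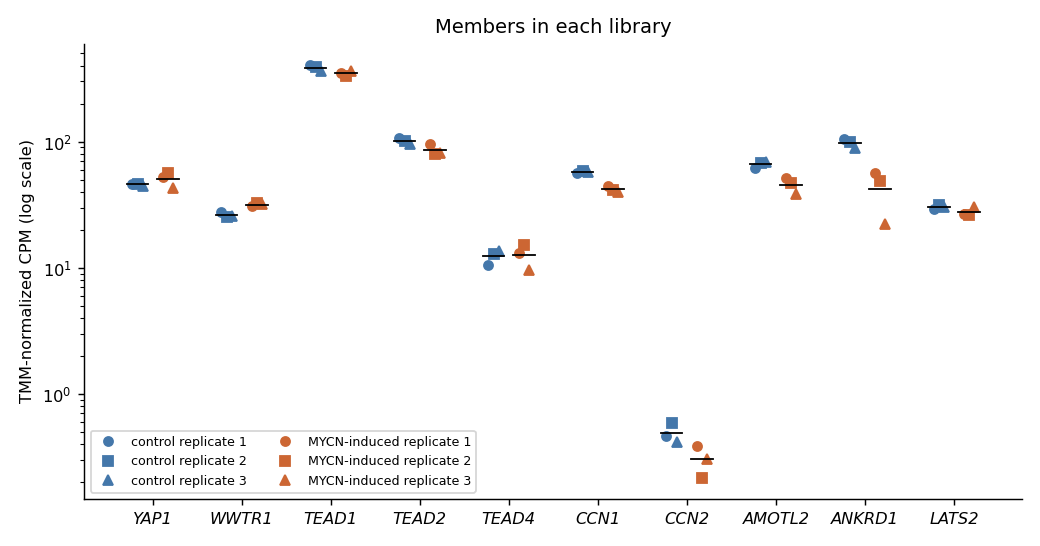
Level of each member in each library (y axis, TMM-normalized CPM, log scale), with control libraries in blue, MYCN-induced libraries in orange, symbols for replicate numbers and a bar for the mean of 3. CCN1, AMOTL2, ANKRD1, CCN2 and TEAD1 were lower in every induced library than in any control library, and WWTR1 was higher.

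CCN1 encodes a secreted matricellular protein, also called CYR61, and lies on chromosome 1 of GRCh38 from 85580761 to 85584589 on the plus strand (ENSG00000142871.18). Its level was 55.95, 58.25 and 57.19 CPM in control replicates 1, 2 and 3 and 44.61, 41.74 and 39.92 CPM in the MYCN-induced replicates. The groups did not overlap and the libraries within each lay close together. CCN1 fell by 0.44 on the log2 scale (95% interval -0.60 to -0.28, standard error 0.07, adjusted p = 0.0193 from edgeR), a change of -26.3%. The threshold was passed in 7 of 12 alternatives and lost in each of the 5 fits that left out a library other than MYCN-induced replicate 3. Over these and the sixth leave-one-out fit the log2 fold change ran from -0.48 to -0.40 and the adjusted p from edgeR from 0.0124 to 0.131.

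AMOTL2 encodes a protein of the angiomotin family, which binds YAP and holds it outside the nucleus. It lies on chromosome 3 of GRCh38 from 134355347 to 134375479 on the minus strand (ENSG00000114019.15). The control libraries were at 61.98, 67.25 and 69.22 CPM and the induced libraries at 51.11, 46.82 and 38.33 CPM, with the lowest value in replicate 3 and no overlap. AMOTL2 fell by 0.54 (log2 fold change, 95% interval -0.80 to -0.29, standard error 0.11, adjusted p = 0.0428 from edgeR), a change of -31.3%. In a fit with a replicate block it was at -0.55 (adjusted p = 0.0591 from edgeR), above the threshold. The pseudogene RPL39P5 shares 187 of its 6479 exon bases, 2.9%, on the same strand.

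ANKRD1 had the largest difference among the members, and its call depended on the processing. It encodes a nuclear ankyrin repeat protein best known from heart muscle and lies on chromosome 10 of GRCh38 from 90912096 to 90921087 on the minus strand (ENSG00000148677.7). Its level was 105.3, 99.16 and 89.39 CPM in control and 56.32, 48.57 and 22.15 CPM in MYCN-induced libraries. All induced libraries were below all controls, and replicate 3 was below the other 2 induced libraries. The log2 fold change was -1.21 (95% interval -1.89 to -0.53, standard error 0.29, adjusted p = 0.0734 from edgeR), which missed the threshold, at a level 2.31-fold lower. With the replicate block it was -1.31 (adjusted p = 0.0271 from edgeR). Without MYCN-induced replicate 3 the difference was smaller, at -0.89, and passed the threshold (adjusted p = 0.00390 from edgeR). DESeq2 gave -1.19 (adjusted p = 0.00138).

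CCN2 encodes connective tissue growth factor, a widely used readout of YAP activity, and lies on chromosome 6 of GRCh38 from 131948176 to 131951372 on the minus strand (ENSG00000118523.6). Its counts were low, at 49, 52 and 42 counts in control and 25, 20 and 26 counts in MYCN-induced libraries. These correspond to 0.468, 0.587 and 0.414 CPM and to 0.385, 0.215 and 0.307 CPM, lower in all induced libraries. The difference of -0.71 on the log2 scale had a wide 95% interval of -1.33 to -0.10 (standard error 0.27, against 0.07 for CCN1) and missed the threshold (adjusted p = 0.205 from edgeR).

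LATS2 encodes the kinase that phosphorylates YAP and TAZ and is itself a target of YAP, and lies on chromosome 13 of GRCh38 from 20973036 to 21061586 on the minus strand (ENSG00000150457.9). It was at 29.16, 31.40 and 30.27 CPM in control and at 26.50, 26.38 and 30.09 CPM in induced libraries. The third induced library lay within the range of the controls and the other 2 below it. Its difference was -0.13 on the log2 scale (95% interval -0.32 to 0.06, adjusted p = 0.462 from edgeR), and 0 of 12 alternatives called it.

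**Figure D3:**
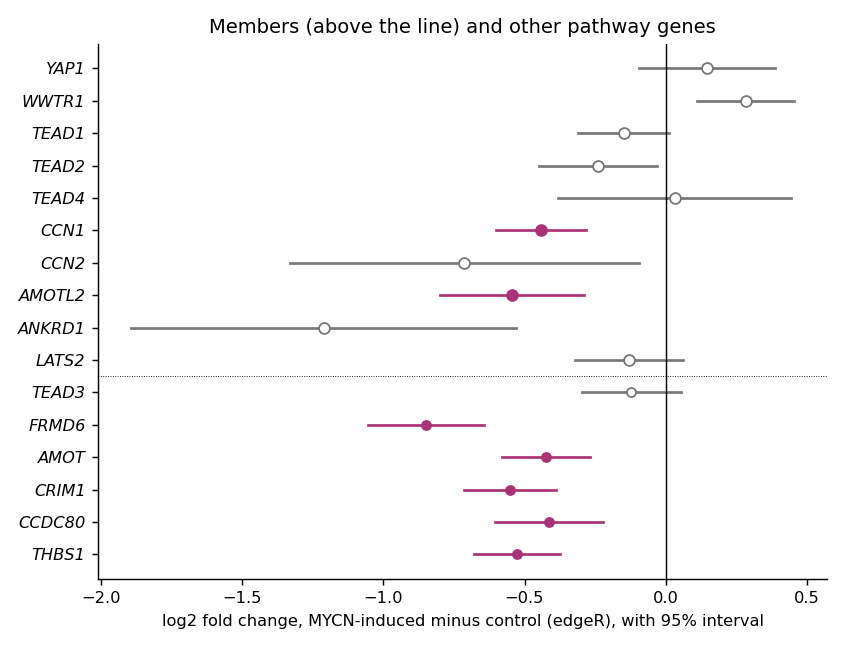
Log2 fold change (x axis, MYCN-induced minus control) with its 95% interval from edgeR for the 10 members, TEAD3 and the 5 other pathway genes past the threshold. Filled symbols mark an adjusted p under 0.05, namely CCN1 and AMOTL2 among the members and FRMD6, AMOT, CRIM1, CCDC80 and THBS1 below the line.

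Neither co-activator passed the threshold. YAP1 lies on chromosome 11 of GRCh38 from 102110447 to 102233424 on the plus strand (ENSG00000137693.14) and was at 46.56, 46.52 and 44.53 CPM in control and at 52.66, 56.62 and 42.99 CPM in MYCN-induced libraries. Replicates 1 and 2 lay above all controls and replicate 3 below them. On the log2 scale the difference was 0.15 (95% interval -0.09 to 0.39, adjusted p = 0.516 from edgeR), and without MYCN-induced replicate 3 it was 0.26 (adjusted p = 0.0382 from edgeR), the only alternative of 12 that called it. The uncharacterized gene ENSG00000254422 on the opposite strand shares 628 of the 6311 exon bases of YAP1. Its counts averaged 5.18 CPM in control and 5.56 CPM in induced libraries. Reads over the shared bases may be mixed, so these values may not be a level of its own. The header of the counts lists no strand option, although the methods name it.

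WWTR1, which encodes TAZ, lies on chromosome 3 of GRCh38 from 149517235 to 149736714 on the minus strand (ENSG00000018408.15). It was at 27.47, 25.05 and 25.58 CPM in control and at 30.71, 32.49 and 31.89 CPM in induced libraries, higher in all 3 with no overlap. The log2 fold change was 0.28 (95% interval 0.11 to 0.46, adjusted p = 0.0883 from edgeR), which missed the threshold. DESeq2 (0.30, adjusted p = 0.0134) and the fit without MYCN-induced replicate 3 (0.29, adjusted p = 0.0422 from edgeR) called it higher. WWTR1-AS1 shares 756 of its 8353 exon bases on the opposite strand and was between 0.458 and 0.826 CPM. The ratio of WWTR1 to YAP1, taken within each library per exon length, was -1.22 ± 0.0675 in control and -1.07 ± 0.207 in induced cells on the log2 scale (SD, n = 3 each, two-sided exact permutation test, p = 0.5, where 3 against 3 cannot give less than 0.1). TAZ RNA was below YAP1 RNA per length in every library.

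The TEAD genes encode the DNA-binding partners. TEAD1 lies on chromosome 11 of GRCh38 from 12674421 to 12944737 on the plus strand (ENSG00000187079.20) and had the most counts of the 10 members. It was at 407.6, 388.0 and 363.2 CPM in control and at 352.3, 333.2 and 359.9 CPM in induced libraries, a pair of ranges that came close but did not overlap. Its log2 fold change was -0.15 (95% interval -0.31 to 0.01, adjusted p = 0.304 from edgeR). TEAD2, on chromosome 19 of GRCh38 from 49340595 to 49362457 on the minus strand (ENSG00000074219.14), was at 106.9, 101.7 and 95.18 CPM in control and at 96.03, 80.49 and 80.78 CPM in induced libraries. The first induced library overlapped the controls, and the log2 fold change was -0.24 (95% interval -0.45 to -0.03, adjusted p = 0.205 from edgeR). CD37 shares 319 of its 2980 exon bases on the opposite strand and was itself between 66.9 and 80.5 CPM, so reads of the 2 genes may be mixed there.
TEAD4, on chromosome 12 of GRCh38 from 2959330 to 3040676 on the plus strand (ENSG00000197905.10), was at 10.58, 12.89 and 13.68 CPM in control and at 13.16, 15.25 and 9.57 CPM in induced libraries. The induced values spanned the control values on both sides. TEAD4 differed by 0.03 on the log2 scale (95% interval -0.38 to 0.45, adjusted p = 0.95 from edgeR), and its sign turned in 2 of 12 alternatives. TEAD3, which completes the family, was between 19.99 and 20.29 CPM in control and between 17.97 and 19.32 CPM in induced libraries (log2 fold change -0.12, adjusted p = 0.458 from edgeR). TEAD1 made up 43.9 ± 0.749% of the family in control and 44.7 ± 2.48% in induced cells, counted per exon length (SD, n = 3 each, two-sided exact permutation test, p = 0.8, smallest possible 0.1). TEAD2 made up between 38.2% and 42.1% in the 6 libraries, TEAD3 between 7.73% and 8.47% and TEAD4 between 5.46% and 9.47%.

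Levels of different genes were compared per length, as TPM, the count divided by exon length and scaled to a common total in each library. In control cells ANKRD1 was the highest of the 10 members and TEAD3, at 90.1 ± 11.8 TPM, followed by TEAD1 at 59.4 ± 6.40 TPM and TEAD2 at 55.9 ± 6.05 TPM (SD, n = 3 each). CCN1 followed at 25.4 ± 1.03 TPM, AMOTL2 at 16.7 ± 0.186 TPM, YAP1 at 11.9 ± 0.865 TPM and TEAD3 at 10.8 ± 0.501 TPM. TEAD4 (8.90 ± 0.741 TPM), LATS2 (8.85 ± 0.363 TPM), WWTR1 (5.12 ± 0.492 TPM) and CCN2 (0.343 ± 0.0677 TPM) were the lowest. The ranges of neighbours in this order overlapped for TEAD1 and TEAD2, for YAP1 and TEAD3 and for TEAD4 and LATS2. In MYCN-induced cells ANKRD1, at 40.1 ± 19.6 TPM, came after TEAD1 (53.4 ± 4.98 TPM) and TEAD2 (47.4 ± 8.08 TPM), and all neighbours overlapped down to LATS2. The 2 CCN genes lay far apart, with a log2 ratio of CCN1 to CCN2 of 6.23 ± 0.247 in control and 6.5 ± 0.392 in induced cells (SD, n = 3 each, two-sided exact permutation test, p = 0.5, smallest possible 0.1).

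The calls of the members differed between single libraries left out and between tools, and their directions mostly did not. CCN1, AMOTL2, ANKRD1, CCN2, LATS2, TEAD1 and TEAD2 stayed below 0 and YAP1 and WWTR1 above 0 in every alternative that could be run, and TEAD4 was the exception. The alternatives reuse the same libraries. For CCN1, AMOTL2, ANKRD1, CCN2, TEAD1 and WWTR1 the groups did not overlap, so leaving out a library could hardly turn the sign. The kept direction is therefore no separate support for these genes. In the alternatives, CCN1 was called in 7 of 12, AMOTL2 in 4, ANKRD1 in 4, WWTR1 in 2 and YAP1 in 1. With library size only, CCN1 was called, against 2.32% of all tested genes lower and 0.822% higher, and with upper-quartile scaling CCN1 and AMOTL2 were, against 2.59% and 0.918%. Without a count filter CCN1, AMOTL2 and ANKRD1 were called, against 1.8% of genes lower and 1.04% higher. With at least 100 counts in every library CCN1 alone was, against 2.47% and 1.39%, and with the replicate block CCN1 and ANKRD1 were, against 1.98% and 0.911%. The shares of all tested genes called lower and higher were 0.674% and 0.168% without control replicate 1, 0.316% and 0.0722% without control replicate 2 and 0.488% and 0.11% without control replicate 3. They were 0.746% and 0.251% without MYCN-induced replicate 1 and 1.04% and 0.598% without MYCN-induced replicate 2. None of these 5 fits called a member. Bulk counts cannot tell fewer cells that express a gene from less RNA per cell.

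**Figure D4:**
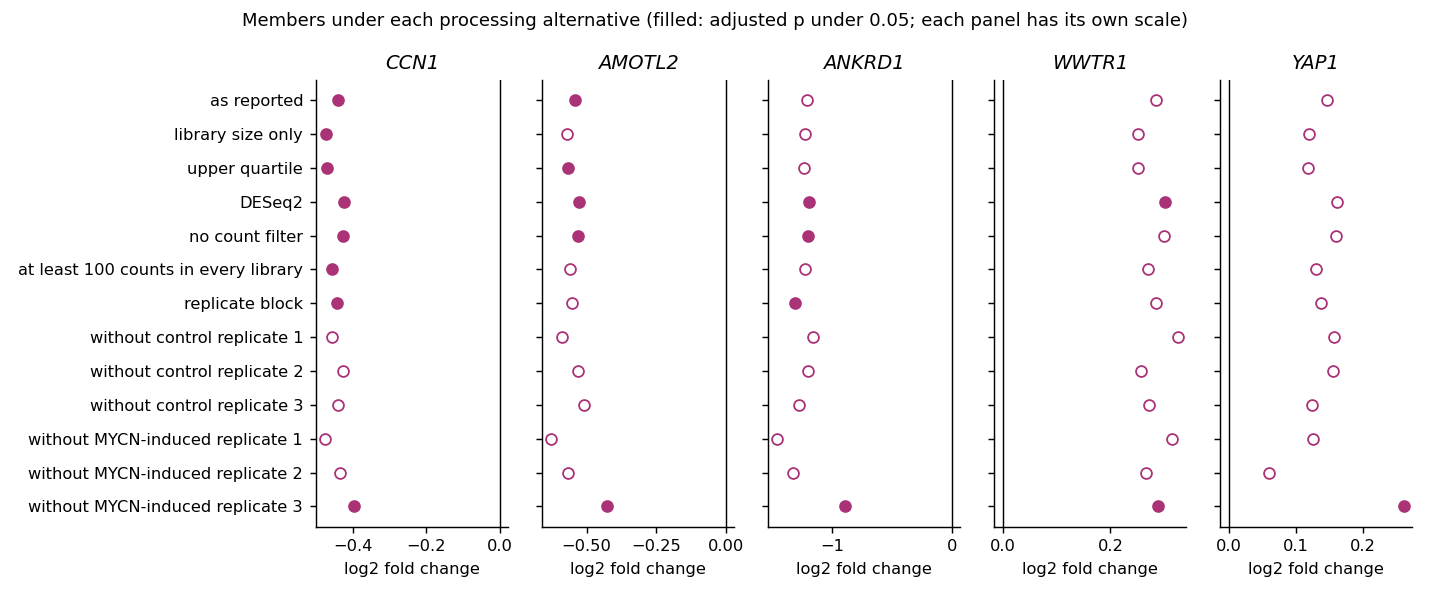
Log2 fold change (x axis, MYCN-induced minus control, each panel on its own scale) of CCN1, AMOTL2, ANKRD1, WWTR1 and YAP1 as reported and under the 12 alternatives (rows). Filled symbols mark an adjusted p under 0.05, and the row without MYCN-induced replicate 3 is filled for all 5 genes.

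In the upstream part of the pathway, FRMD6 and AMOT were called lower. Of 25 regulators of the Hippo kinases that are not members, all 25 were tested. Of these, 2 were lower and 0 higher, against 2.38% and 1.02% of all tested genes, and the median log2 fold change was 0.00. DESeq2 called 3 lower and 0 higher, against 4.12% and 3.11%. Without MYCN-induced replicate 3 there were 3 lower and 2 higher, against 4.37% and 3.64%. FRMD6, a FERM domain protein that acts upstream of the kinases, was at 32.36, 32.76 and 32.90 CPM in control and at 18.83, 19.36 and 16.22 CPM in induced libraries. It fell by 0.85 (log2 fold change, 95% interval -1.05 to -0.64, adjusted p = 0.00514 from edgeR) and was called in 12 of 12 alternatives. AMOT, the founding member of the angiomotin family, averaged 50.5 ± 1.69 CPM without and 37.7 ± 1.49 CPM with induction (SD, 3 libraries per group) and fell by 0.42 (log2 fold change, adjusted p = 0.0206 from edgeR). It was called in 7 of 12 alternatives, and in 1 of the 6 that left out a library. The third angiomotin, AMOTL1, averaged 77.2 ± 1.26 and 76.7 ± 8.65 CPM (SD, 3 libraries per group), with a log2 fold change of -0.01 and a 95% interval of -0.22 to 0.20. The difference between the changes of AMOT or AMOTL2 and that of AMOTL1 was not tested. DCHS1, a protocadherin ligand of FAT4, differed by -0.57 (log2, adjusted p = 0.0765 from edgeR) and was called lower in 3 of 12 alternatives, by DESeq2 (adjusted p = 0.0177), without a count filter (adjusted p = 0.0385 from edgeR) and without MYCN-induced replicate 3 (-0.42, adjusted p = 0.0459 from edgeR). WWC3, of the KIBRA family, differed by 0.29 (adjusted p = 0.207 from edgeR).
The kinases themselves had small values. STK3 was at -0.20, STK4 at 0.16 and LATS1 at 0.09 on the log2 scale, with adjusted p-values of 0.286, 0.264 and 0.583 from edgeR. Of TEAD3 and the 4 VGLL genes, whose proteins share the TEAD complex, 3 were tested and the median was -0.12. Of the 3, 0 were called lower and 0 higher, against 2.38% and 1.02% of all tested genes. VGLL4, which competes with YAP for TEAD, averaged 20.8 ± 0.826 CPM without and 28.2 ± 4.23 CPM with induction (SD, 3 libraries per group, log2 difference 0.44, adjusted p = 0.0893 from edgeR). DESeq2 called it higher (adjusted p = 0.0212), as it did 3.11% of all tested genes. VGLL3 was at -0.47 (adjusted p = 0.215 from edgeR), and VGLL1 and VGLL2 had at most 2 counts in a library.

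Among other described YAP and TAZ targets, CRIM1, CCDC80 and THBS1 fell and none passed the threshold upwards in edgeR with all libraries. A signature of 22 such genes, written from general knowledge, holds the 5 member targets and 17 others, of which 16 were tested. Of the 16, 2 were lower and 0 higher, against 2.38% and 1.02% of all tested genes, 9 had a log2 fold change below 0 and 7 above, and the median was -0.15. DESeq2 called 3 lower and 2 higher, against 4.12% and 3.11%. Without MYCN-induced replicate 3 there were 4 lower and 2 higher, against 4.37% and 3.64%. CRIM1, a transmembrane protein that binds BMPs, was at 96.32, 94.06 and 93.07 CPM in control and 68.64, 64.72 and 60.06 CPM in induced libraries (log2 fold change -0.55, adjusted p = 0.00955 from edgeR). CCDC80, a secreted matrix protein, averaged 94.1 ± 4.15 and 70.6 ± 6.27 CPM (SD, 3 libraries per group, log2 difference -0.41, adjusted p = 0.0405 from edgeR). CRIM1 was called in 10 of 12 alternatives, whereas CCDC80 was called in 6 of 12 and in 1 of the 6 that left out a library, with adjusted p-values up to 0.209 from edgeR. Values above 0 included DOCK5 (0.62, adjusted p = 0.194 from edgeR), a guanine nucleotide exchange factor, and FJX1 (0.53, adjusted p = 0.121), and values below 0 included F3 (-0.60, adjusted p = 0.139), which encodes tissue factor. DOCK5 was at 126.8 CPM in MYCN-induced replicate 3 and at 74.95 and 65.73 CPM in the other 2, and its difference was 0.28 without that library. FJX1 was called higher by DESeq2 (adjusted p = 0.0316) and without that library (0.68, adjusted p = 0.0173 from edgeR). With the member targets, 4 of 21 tested signature genes were lower and 0 higher, against 2.38% and 1.02% of all tested genes. DESeq2 called 6 lower and 2 higher, against 4.12% and 3.11%, and the fit without MYCN-induced replicate 3 called 7 lower and 2 higher, against 4.37% and 3.64%.
Of 9 further targets, 6 were tested, 1 was lower and 0 higher, against 2.38% and 1.02% of all tested genes, and the median was 0.15. THBS1, which encodes the matricellular protein thrombospondin, was at 310.4, 330.1 and 302.4 CPM in control and at 228.8, 210.7 and 215.2 CPM in induced libraries, without overlap. It fell by 0.53 (log2 fold change, 95% interval -0.68 to -0.37, adjusted p = 0.00904 from edgeR) and was called in 11 of 12 alternatives. BIRC5 (0.04) and DLC1 (-0.17) had adjusted p-values of 0.955 and 0.467 from edgeR. Of the other 4 CCN genes, 3 were tested, with a median of 0.08. Of the 3, 0 were called lower and 0 higher, against 2.38% and 1.02% of all tested genes. CCN3 (log2 fold change 1.31, adjusted p = 0.143 from edgeR) was at 60, 46 and 50 counts in control and at 54, 74 and 194 counts in induced libraries. Its difference was 0.63 without MYCN-induced replicate 3 (adjusted p = 0.0659 from edgeR). DESeq2 with all libraries called CCN3 higher (adjusted p = 0.0264), as it did 3.11% of all tested genes.

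Several of the target genes also respond to SRF and its actin-controlled partners, the MRTF proteins. Of 14 genes of SRF and the actin cytoskeleton, 14 were tested, and 0 were higher and 0 lower in edgeR and in DESeq2. Over all tested genes, edgeR called 2.38% lower and 1.02% higher, and DESeq2 4.12% and 3.11%. Of the 14, 3 had an unadjusted p under 0.05, against 18.7% of all tested genes, and the median log2 fold change was -0.13. CNN1 (-0.75), ACTA2 (-0.40) and TPM1 (-0.21) were below 0 and FHL2 (0.30) above, with adjusted p-values from edgeR of 0.269, 0.218, 0.490 and 0.181. Without MYCN-induced replicate 3, 2 of the 14 were lower, against 4.37% of all tested genes, namely ACTA2 (-0.56, adjusted p = 0.0326 from edgeR) and TPM1 (-0.38, adjusted p = 0.0474). Over the 6 lists beside the members, which hold 73 different genes, 66 were tested, with a median of -0.03. Of these, 5 were lower and 0 higher, against 2.38% and 1.02% of all tested genes. PTPN14 is on the lists of regulators and of signature genes and counts once here.

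**Figure D5:**
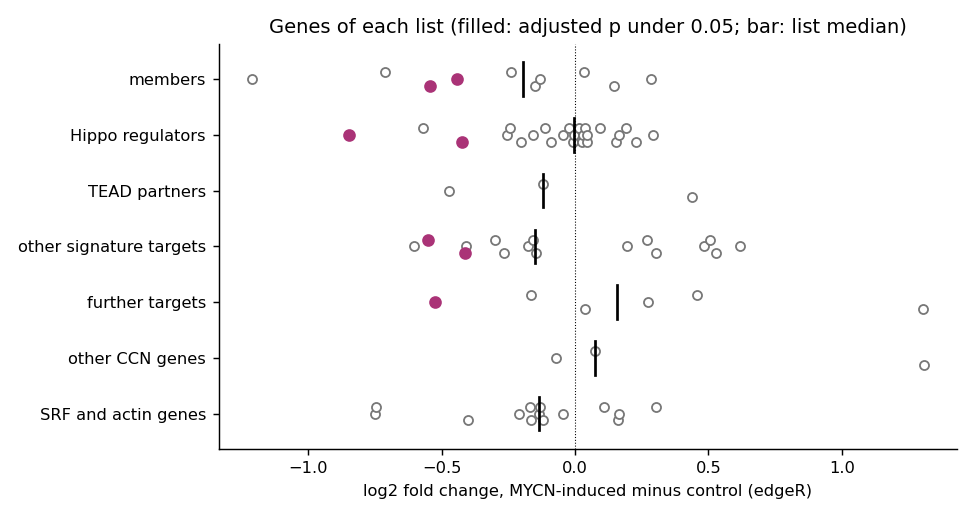
Log2 fold change (x axis, MYCN-induced minus control, edgeR) of each tested gene, in rows by list, with filled symbols for an adjusted p under 0.05 and a bar at the list median. The filled symbols, 2 among the members and 5 in the other lists, all lie below 0.

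The genes whose levels over the 6 libraries were most like that of YAP1 were CORO1C, SNRNP48 and NANP, with Pearson correlations of log2 CPM of 0.998, 0.997 and 0.996. The most like CCN2 were SRRM2 (0.997), BCS1L (0.994) and UNC119 (0.985). These are descriptions over 6 libraries that share conditions and depth, chosen as the highest of 18534 and 18535 genes, of which 282 and 43 exceeded 0.95.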

How the data were processed

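Ribosome-depleted total RNA of 3 control and 3 MYCN-induced SK-N-AS cultures was read as pairs of 150 bases. The values are estimated counts of read pairs over the exons of a gene, as the authors deposited them. Their header names featureCounts v1.6.4 on unique STAR alignments, with pairs over several genes shared in equal fractions and no strand option. The methods and the submitters' processing notes instead name featureCounts 1.5.1 and STAR 2.7.1a on GRCh38, and the methods a strand option. Reads of genes that overlap on opposite strands may therefore be mixed. Symbols came from GENCODE release 44, which matched 99.65% of 60651 identifiers, and 92.3% had the same coordinates there, all members included.

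Counts were rounded, and the 29086 genes reaching 10 counts in 3 or more libraries were fitted in edgeR 4.0.16 under R 4.3.3 (TMM, quasi-likelihood test, Benjamini-Hochberg over all of them, threshold 0.05). DESeq2 1.42.0 was an alternative. A standard error is the log2 fold change divided by the square root of F. Within-library ratios used exact permutation tests. The fits were tested on simulated counts, where edgeR recovered 51.5% of 196 genes changed 2-fold and called 4 unchanged genes. DESeq2 recovered 66.8% and called 50 unchanged genes. A gene that missed the threshold is therefore not shown to be unchanged. Replicates differed by more than sampling noise (chi-square per gene from 12.2 to 151). The biological coefficient of variation was 0.153.

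Groups and replicate numbers came from the sample titles. The members and the gene lists, written from general knowledge, were chosen with earlier results of these data known. Named genes are the members, MYCN, TEAD3, list genes past the threshold, the 4 largest changes per list at a mean of at least 1 CPM, genes sharing exons with a member, the 3 genes most like YAP1 and CCN2, and markers. AMOTL1, STK3, STK4, LATS1 and CCN3 were added after their values were seen. Single values of some list genes are not reported here. For likeness, 0.01 was added to CPM before the logarithm. Alternatives were scaling by library size only or upper quartile, DESeq2, dropping the count filter, requiring 100 counts in each library, a replicate block, and leaving out each library in turn. Promoters are from RefSeq.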

Additional observations from a re-analysis of the deposited data

How the results depend on the processing

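The replicate numbers were not shown to pair the libraries, since deviations of same-numbered libraries from their group means had correlations across genes of 0.216, -0.019 and 0.074 for numbers 1, 2 and 3. A fit with the replicate block called 265 genes higher and 575 lower, against 298 and 692 without it. The block ended the call of AMOTL2 (-0.551, adjusted p = 0.0591 from edgeR) and added that of ANKRD1 (-1.309, adjusted p = 0.0271), and BIRC5 turned to -0.02. DESeq2 gave 904 higher and 1199 lower genes, 1 member higher (WWTR1, 0.301) with ANKRD1 (-1.194) added to the lower ones, and 4 list genes higher. Without a count filter 470 genes, 0 members and 1 list gene were higher, and ANKRD1 was called at -1.197 (adjusted p = 0.0202 from edgeR). With at least 100 counts in every library 404 genes and 1 member were lower, AMOTL2 was lost at -0.558 (adjusted p = 0.0543 from edgeR) and CCN2 could not be tested. With library size only 1 member was lower, and AMOTL2 was lost at -0.569 (adjusted p = 0.0586 from edgeR). The median log2 fold change of all genes lay between -0.034 and 0.016 in every alternative.

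Leaving out each library in turn gave from 21 to 1058 genes higher and from 92 to 1271 lower, from 0 to 2 members higher and from 0 to 3 lower, and from 0 to 4 list genes higher and from 1 to 10 lower. The highest counts came without MYCN-induced replicate 3 and the lowest counts over all genes without control replicate 2. The log2 fold change ranged from 0.06 to 0.261 for YAP1, from 0.257 to 0.325 for WWTR1, from -0.126 to 0.206 for TEAD4, from -0.477 to -0.396 for CCN1, from -0.629 to -0.427 for AMOTL2 and from -1.461 to -0.893 for ANKRD1. BIRC5 ranged from -0.167 to 0.307. The difference in the TEAD1 share ranged from -0.627 percentage points, without MYCN-induced replicate 3, to 1.78. TEAD4 was below 0 without control replicate 1 (-0.07) and without MYCN-induced replicate 2 (-0.126), and BIRC5 without control replicate 1 (-0.047) and MYCN-induced replicates 1 (-0.052) and 2 (-0.167). AMOTL1, at -0.009, turned to 0.007 with DESeq2, 0.005 without a count filter, 0.0 without control replicate 2 and 0.089 without MYCN-induced replicate 3, and ranged from -0.069 to 0.089 over the fits that left out a library. Why single libraries move the calls was not tested. Fits with 2 libraries in a group have fewer degrees of freedom, and the depth of CCN2 was 20 to 52 counts.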
